A study of Homo sapiens with 4 samples.

Results

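Chromosomes 4, 13 and 18 held 1739 of the 22045 H3K27me3 peaks that were called in HaCaT cells with and without AKBA. The members are all peaks of both peak lists on these chromosomes, in coordinates of the human genome build hg19, and no other criterion was used. They comprised 716 of the 8890 DMSO peaks (8.05%) and 1023 of the 13155 AKBA peaks (7.78%). HaCaT cells are human keratinocytes, an established immortalised line. Cells received AKBA or DMSO for 12 hours, and chromatin was immunoprecipitated with an antibody against histone H3 trimethylated at lysine 27. AKBA is a common abbreviation for an acetylated boswellic acid of frankincense resin, which the labels do not spell out, and DMSO is a solvent. The sources used here give neither the dose of AKBA nor the concentration of DMSO. The series has 4 samples, of which the 2 H3K27me3 libraries gave peak lists and the 2 samples of input DNA were not used here. Each condition had 1 H3K27me3 library, so differences between AKBA and DMSO cannot be set against replicate error, and p-values are left out. The sequencing depth is unknown, and a stretch without a peak may still carry the mark below the calling threshold. Copy number of the chromosomes in these cells was not examined, so comparisons between chromosomes are not corrected for it.

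H3K27me3 is laid down by Polycomb repressive complex 2, whose catalytic subunit is EZH2 or EZH1. It is known for keeping developmental regulators silent in cells where they are not used, often over broad stretches around their CpG-rich promoters. In keratinocytes the mark is known to cover genes of other lineages and to be removed from some differentiation genes as cells leave the basal layer. Gene-poor chromosomes also carry long stretches with few genes, in which broad, weak H3K27me3 can lie without forming narrow peaks.

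The label gene-poor held in the gene table at hand, RefSeq on assembly GRCh38.p14. Chromosome 18 had 3.34 protein-coding genes per Mb between its first and last coding gene, chromosome 13 had 3.53 and chromosome 4 had 4.01. These were the lowest values of the 22 autosomes, whose other 19 members ran from 4.87 to 24.1 with a median of 6.94. In number of coding genes, chromosome 18 had 268, chromosome 13 had 336 and chromosome 4 had 763.

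The same table gave the places of listed developmental and epidermal genes on these chromosomes. Whether any of them is silenced in these cells was not examined. Every listed gene was picked from these chromosomes, so the counts below reflect the choice of genes and measure no enrichment. Of 31 listed developmental transcription factors, 12 lie on chromosome 4 (among them MSX1 and HAND2, regulators of tooth and heart development). Chromosome 13 carries 11, with GSX1, PDX1 and CDX2 next to one another and ZIC5 next to ZIC2. PDX1 and CDX2 specify pancreas and intestine, and the ZIC genes act in the early nervous system. Chromosome 18 carries 8, among them GATA6, an endoderm and heart regulator, and ONECUT2, a liver and neuron regulator. Of 19 listed epidermal genes, 14 lie on chromosome 18, including the uninterrupted row DSC3, DSC2, DSC1, DSG1, DSG4, DSG3 and DSG2, which encode the cadherins of desmosomes. Chromosome 4 carries 2 of them (EREG and AREG, ligands of the epidermal growth factor receptor). Chromosome 13 carries 3, of which GJB2 and GJB6 encode gap junction connexins and KLF5, a transcription factor, is on the developmental list too. The 11 listed cadherins and protocadherins divide into 3, 4 and 4 over chromosomes 4, 13 and 18, and the 10 listed housekeeping genes into 5, 3 and 2. Because the table and the peaks are of different builds, no peak was assigned to any of these genes, and regions are named by hg19 position alone.

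Peaks were sparse on chromosome 4 and of middling density on chromosomes 13 and 18. Density was counted per Mb of the span between the first and the last peak of both lists. On chromosome 4 it was 1.13 DMSO and 1.42 AKBA peaks per Mb, the lowest of the 22 autosomes in both lists. Chromosome 13 had 2.90 and 4.08 peaks per Mb, and chromosome 18 had 2.94 and 4.75. The other autosomes ran from 1.32 on chromosome 21 to 7.69 on chromosome 20 in the DMSO list, with a median of 3.54. In the AKBA list they ran from 2.14 to 11.7, with a median of 5.40. Counted from the lowest, chromosomes 13 and 18 stood in place 9 and 10 in the DMSO list and in place 7 and 11 in the AKBA list. The 3 chromosomes pooled had 1.98 DMSO and 2.82 AKBA peaks per Mb, against 3.33 and 4.96 on the other autosomes, which is 0.593 and 0.570 times their density. Without chromosome 4 the ratio was 0.875 in the DMSO list and 0.885 in the AKBA list.

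**Figure D1:**
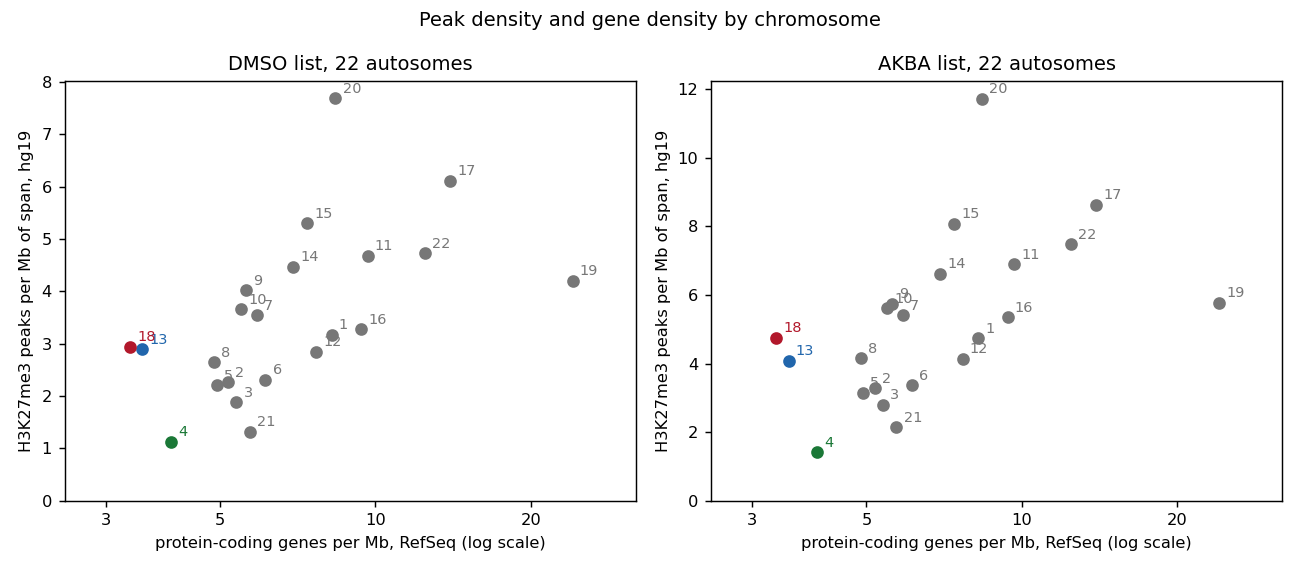
Peaks per Mb of span (vertical axis) against protein-coding genes per Mb (horizontal axis, log scale) for the 22 autosomes, each point 1 chromosome, in the DMSO list (left) and the AKBA list (right). Chromosomes 18, 13 and 4 are the leftmost points, and chromosome 4 is also the lowest, at 1.13 and 1.42 peaks per Mb.

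Set against their genes, chromosomes 13 and 18 stood near the top of the order, while chromosome 4 stayed near the bottom. Chromosome 18 had 85.1 DMSO and 137.3 AKBA peaks per 100 coding genes, the second highest and the highest value of the 22 autosomes, beside 89.9 and 137.1 on chromosome 20. Chromosome 13 had 81.3 and 115, the third highest in both lists. Chromosome 4 had 28.2 and 35.4 peaks per 100 coding genes, the third lowest in both lists. The other autosomes had medians of 43.9 and 63.4. Genes here are counts per chromosome from the GRCh38.p14 table, and the order is a description without a test. The chromosomes were chosen as gene-poor and gene counts are the divisor, so the choice itself raises this measure.

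Long stretches without a peak of either list set chromosome 4 apart from most autosomes. A stretch counted as long from 3 Mb upward, and chromosome 4 had 15 of them, which together took 89.2 of its 190.6 Mb (46.8%). Chromosome 13 had 6, which took 29.1 Mb (30.9%), and chromosome 18 had 5, which took 20.1 Mb (25.9%). The 19 other autosomes had 0 to 8 each, with a median share of 12.4% and a highest share of 45.5% on chromosome 21. The 3 chromosomes were the first, the third and the fifth in that share. Whether a stretch holds unsequenced bases of the assembly was not examined. The number of such stretches also depends on how many peaks there are.

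The longest stretch of each chromosome lay at the same place in both lists, with nearly equal borders on chromosome 18 and a start that differed between the lists on chromosomes 4 and 13. On chromosome 4 it ran from 25657523 to 37245055, 11.6 Mb, and it measured 11.8 Mb in the DMSO list and 11.6 Mb in the AKBA list taken alone. On chromosome 13 it ran from 61988098 to 72438320, 10.5 Mb, with 11.6 Mb in the DMSO list and 10.5 Mb in the AKBA list. On chromosome 18 it ran from 60986082 to 67067629, 6.08 Mb, with lengths of 6.08 Mb in both lists. Other long stretches held peaks of 1 list alone, in both directions. The second longest DMSO stretch of chromosome 13, from 72440472 to 78271477, measured 5.83 Mb and was not among the 3 longest of the AKBA list, of which the third was 3.89 Mb long. On chromosome 18 the AKBA stretch from 15197956 to 19673080, 4.48 Mb long, held DMSO peaks, and the part free of both lists measured 3.32 Mb.

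Taking the long stretches out of the span did not lift chromosome 4 from its place. It then had 2.12 DMSO and 2.66 AKBA peaks per Mb, still the lowest of the 22 autosomes, beside 4.19 and 5.91 on chromosome 13 and 3.97 and 6.41 on chromosome 18. The medians of the other autosomes were 4.17 and 6.39. The pooled ratio of the 3 chromosomes to the others rose to 0.820 in the DMSO list and 0.788 in the AKBA list.

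The spacing of peaks on chromosome 4 was split between close and distant neighbours. The gap is the distance from the end of a peak to the start of the next in the same list. Of the 214 DMSO gaps of chromosome 4, 86 (40.2%) were under 10 kb and 53 (24.8%) were over 1 Mb. On the other autosomes pooled these shares were 32.2% and 7.78%. Chromosome 4 thus had larger shares of both the shortest and the longest gaps, and its share over 1 Mb was the highest of the 22 autosomes in both lists. Its median gap was 102 kb in the DMSO list and 67.6 kb in the AKBA list, the second widest and the widest of the autosomes. In the AKBA list 34.2% of its gaps were under 10 kb, beside 33.7% on the other autosomes, and 51 of 269 were over 1 Mb, beside 569 of 11955.

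Gaps on chromosomes 13 and 18 lay close to those of the other autosomes. The median was 36.5 kb in the DMSO list and 32.5 kb in the AKBA list on chromosome 13, and 31.7 and 23.7 kb on chromosome 18. The other autosomes pooled had medians of 39.7 and 26.6 kb. Pooling the 3 chromosomes gave 37.0 kb for DMSO, shorter than on the other autosomes, and 32.4 kb for AKBA, longer than there, so the median gap did not order the groups the same way in both lists. The DMSO order was not stable: the ratio of medians was 0.933, but 1.03 with a score of at least 3.00, 1.31 with peaks merged within 5 kb, 1.37 with widths of at least 1 kb and 1.11 without chromosome 18. The length exceeded by 10% of the gaps was 1389 kb (DMSO) and 876 kb (AKBA) on the 3 chromosomes, and 790.03 and 519 kb on the others. That excess rested on chromosome 4, without which the values were 837 and 504 kb, the AKBA value then below that of the others. The smallest gap was 643 bp in the DMSO list and 859 bp in the AKBA list, within 2 bp of the smallest gap anywhere in each list (641 and 857 bp), a limit that was not the same in both lists.

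**Figure D2:**
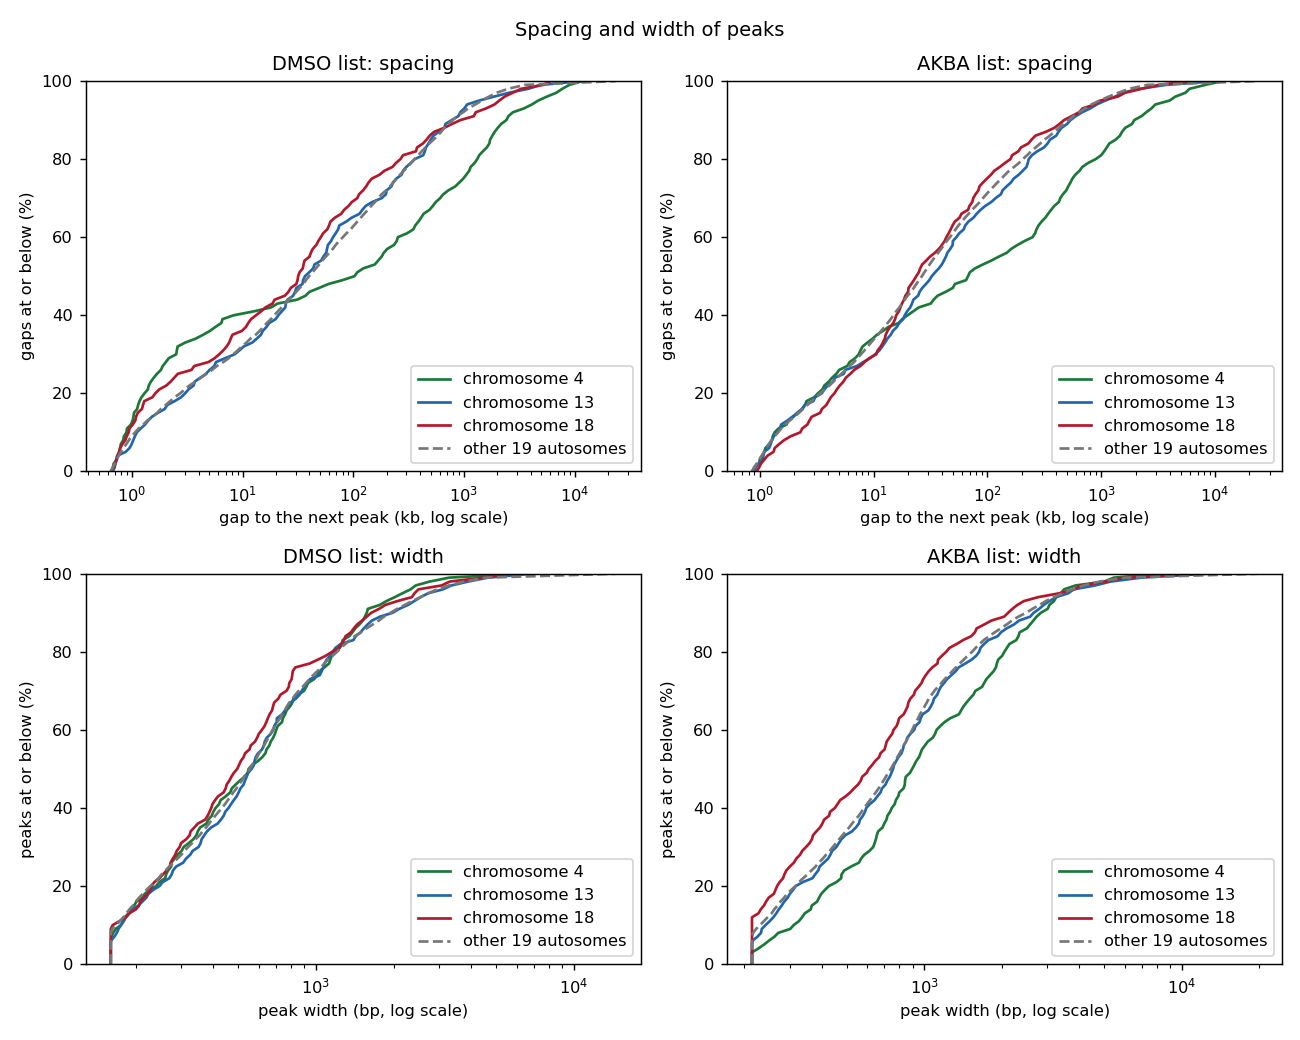
Share of gaps (upper panels, kb, log scale) and of peaks (lower panels, width in bp, log scale) at or below each value, for chromosomes 4, 13 and 18 and for the other 19 autosomes pooled (dashed), in the DMSO list (left) and the AKBA list (right). The chromosome 4 curve of DMSO gaps lies above the dashed curve below 10 kb (40.2% against 32.2%) and falls below it further right, and its AKBA peaks are shifted to greater widths.

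A larger share of 1 Mb windows was empty on the 3 chromosomes than on the other autosomes. A peak was counted in the window that holds its midpoint, over the windows between the first and the last peak. Of the 191 windows of chromosome 4, 114 had no DMSO peak (59.7%) and 111 no AKBA peak (58.1%), the highest shares of the 22 autosomes. Chromosome 13 had 43.2% and 34.7% of its 95 windows empty, and chromosome 18 had 48.7% and 34.6% of its 78. On the other autosomes pooled the shares were 33.1% and 27.3%, and the highest single value was 56.4% and 48.7% on chromosome 21.

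The fullest windows also took more of the peaks. The fullest 10% of its windows held 60.0% of the DMSO and 63.0% of the AKBA peaks of chromosome 4, again the highest of the 22 autosomes. On chromosome 13 it held 55.7% and 51.7%, the fifth highest in both lists, and on chromosome 18 it held 49.1% and 44.8%. The pooled share of the other autosomes was 47.4% and 46.7%, so chromosome 18 lay above it in the DMSO list and below it in the AKBA list. Both this share and that of empty windows tend to rise as peaks per window fall. Chromosome 4 had a mean of 1.13 DMSO and 1.41 AKBA peaks per window, beside 3.31 and 4.92 on the other autosomes. How much of the 2 shares goes with density was not tested. Variance over mean of the window counts gave another order, with chromosome 4 below the other autosomes pooled. It was 5.91 and 6.95 on chromosome 4, 8.98 and 11.6 on chromosome 13 and 8.31 and 11.1 on chromosome 18, beside pooled values of 8.52 and 11.7. Window counts of the 2 lists rose and fell together on the 3 chromosomes, with a Pearson r of 0.923 and a Spearman rho of 0.866 over 364 windows, and 0.920 and 0.873 on the other autosomes. These windows share the sequence and its mappability in both libraries, and neighbouring windows are not independent.

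**Figure D3:**
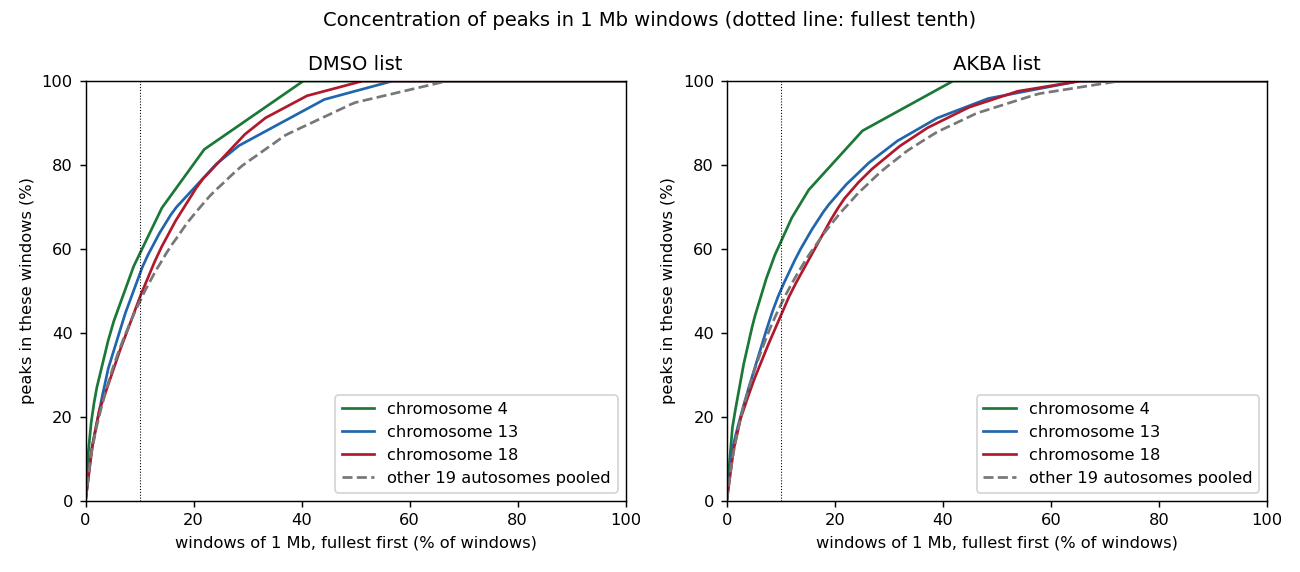
Cumulative share of peaks (vertical axis, %) in 1 Mb windows ordered from the fullest to the emptiest (horizontal axis, % of windows), for chromosomes 4, 13 and 18 and the other 19 autosomes pooled (dashed), in the DMSO list (left) and the AKBA list (right). At the dotted line, the fullest 10%, chromosome 4 stands at 60.0% and 63.0%, above the pooled 47.4% and 46.7%.

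The fullest windows lay within 10 Mb of an end of the span, except the window from 44 to 45 Mb on chromosome 18. On chromosome 13 the window from 112 to 113 Mb held 32 DMSO and 48 AKBA peaks, which was 11.7% and 12.5% of the chromosome's peaks. It stood in place 11 among the 2796 windows of all autosomes. Next came the windows from 28 to 29 Mb, with 18 and 19 peaks, and from 113 to 114 Mb, with 19 and 17. The covered length in these windows was greater with AKBA. It was 24.4 kb (DMSO) and 58.8 kb (AKBA) from 112 to 113 Mb, the greatest excess of AKBA bases on the chromosome, 33.7 and 47.6 kb from 28 to 29 Mb, and 13.5 and 21.1 kb from 113 to 114 Mb. In the last of them DMSO had more peaks and AKBA more bases.

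On chromosome 18 the window from 73 to 74 Mb was fullest, with 30 DMSO and 45 AKBA peaks, in place 13 of the 2796 windows. The window from 44 to 45 Mb held 19 and 27 peaks over 14.8 and 36.1 kb, and it had the greatest excess of AKBA bases on the chromosome. From 72 to 73 Mb there were 11 and 15 peaks. The windows from 72 to 74 Mb are adjacent. On chromosome 4 the window from 8 to 9 Mb held 25 peaks of each list over 17.6 kb (DMSO) and 33.5 kb (AKBA), and it stood in place 47. From 3 to 4 Mb there were 15 and 22 peaks over 6.81 and 23.8 kb, the greatest excess of AKBA bases on the chromosome and a ratio of 3.50. From 4 to 5 Mb there were 10 of each list. Of the 100 fullest windows of all autosomes, 7 lay on these chromosomes, 2 on chromosome 4, 3 on chromosome 13 and 2 on chromosome 18. The 3 chromosomes hold 364 of the 2796 windows.

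Peaks of chromosome 4 were drawn to the start of its short arm. The first 10 Mb of its span held 71 of the 215 DMSO peaks (33.0%) and 102 of the 270 AKBA peaks (37.8%), and the last 10 Mb held 11 and 18. Both ends together had 38.1% of the DMSO and 44.4% of the AKBA peaks on 10.5% of the span. That is 3.64 and 4.24 times their share of the length, the highest of the 22 autosomes in both lists, beside a range of 0.530 to 3.40 (DMSO) and 0.608 to 3.56 (AKBA) on the others. Chromosome 13 had 53.5% and 51.7% of its peaks in the 2 end stretches of its span, which was 2.52 and 2.44 times their share. The span runs from the first to the last peak, so its ends need not be the ends of the chromosome. On chromosome 18 the last 10 Mb held 32.5% and 32.9% of the peaks and the first 10 Mb 7.02% and 4.89%. Its 2 ends together had 1.53 and 1.46 times their share, below the medians of 1.80 and 1.99 of the other autosomes. Ends of a fixed 10 Mb take more of a shorter span, 10.5% on chromosome 4, 25.8% on chromosome 18 and 58.7% on chromosome 22. The highest ratio that can be reached is therefore lower on shorter chromosomes, and the order can depend on length.

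Peak widths of the 3 chromosomes differed from one another in the AKBA list more than in the DMSO list. In the DMSO list the median width was 548 bp on chromosome 4, 563 bp on chromosome 13 and 495 bp on chromosome 18, beside 554 bp on the other autosomes pooled. In the AKBA list it was 896.5 bp on chromosome 4, the widest of the 22 autosomes, 756 bp on chromosome 13 and 608.5 bp on chromosome 18, the narrowest, beside 741 bp. Pooled over the 3 chromosomes the medians were 534.5 and 745 bp, beside 554 and 741 bp on the others. In the AKBA list chromosomes 4 and 18 lay on either side of that value, and in the DMSO list both lay below it. At the narrow end, 12.2% of the AKBA peaks of chromosome 18 had the narrowest width of the list, 214 bp, the highest share of the 22 autosomes, and 3.70% of those of chromosome 4, the lowest.

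Broad peaks followed the same order in the AKBA list. Of all AKBA peaks 14.0% were at least 2 kb wide, and of all DMSO peaks 9.43%. On chromosome 4, 58 of 270 AKBA peaks reached that width (21.5%, exact 95% Clopper-Pearson binomial interval 16.7 to 26.9%), the highest share of the 22 autosomes. In the DMSO list chromosome 4 had 14 of 215 (6.51%, interval 3.61 to 10.7%), so its place was low there. Chromosome 13 had 27 DMSO (9.89%) and 57 AKBA (14.8%) peaks of that width, and chromosome 18 had 17 (7.46%) and 42 (11.4%). Over the 3 chromosomes, 6 of 716 DMSO and 25 of 1023 AKBA peaks reached 5 kb, beside 64 of 8052 and 215 of 11974 on the other autosomes. All intervals given are for counting error alone, as if peaks were independent, without variation between cultures.

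The widest peaks of each chromosome were found in both lists. Peaks picked as the widest of a list tend to exceed their partners in the other, so their sizes are given as descriptions. On chromosome 13 the widest AKBA peak ran from 112706073 to 112718680, spanned 12608 bp and contained or met 5 DMSO peaks, which covered 55.5% of its length. The next ran from 28494014 to 28504645, a width of 10632 bp, and met 3 DMSO peaks, the widest of which measured 5991 bp. The third, from 95358429 to 95366964, spanned 8536 bp over 2 DMSO peaks. The 3 widest DMSO peaks of chromosome 13 all lay in the window from 28 to 29 Mb. They ran from 28364161 to 28371043, from 28491508 to 28497498 and from 28540630 to 28546248, with widths of 6883, 5991 and 5619 bp. Each met 2 AKBA peaks, which covered 84.3%, 85.4% and 73.1% of them, and the wider AKBA partner measured 6820, 10632 and 4736 bp.

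On chromosome 18 the widest AKBA peak ran from 56931959 to 56943995, a width of 12037 bp, and met 2 DMSO peaks over 60.6% of its length. The second, 11688 bp wide, ran from 55100137 to 55111824 over 3 DMSO peaks, and the third, from 48083206 to 48090321, spanned 7116 bp over 3. The 3 widest DMSO peaks of chromosome 18 measured 5747, 4773 and 4764 bp, and each lay wholly inside 1 AKBA peak. On chromosome 4 the widest peaks were of nearly equal size in both lists. The widest DMSO peak measured 6292 bp with DMSO (5889324 to 5895615) and 6394 bp with AKBA (5888753 to 5895146), and the next measured 5725 bp (1395966 to 1401690) and 5762 bp (1395291 to 1401052). The exception was the widest AKBA peak, from 4866913 to 4875213, which spanned 8301 bp and overlapped 4 DMSO peaks of at most 2118 bp. The third widest DMSO peak of chromosome 4, from 54964881 to 54968235, measured 3355 bp beside an AKBA peak of 3332 bp.

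The highest-scoring peaks were also common to both lists, with 1 exception. Scores are the authors' values, their scale is not given, and they served for ranking inside a list and for a minimum of 3.00. Whether that minimum means the same in both lists is not known. The top AKBA peak of the 3 chromosomes lay on chromosome 18 (74958624 to 74964355) and scored 11.6, and it held the top DMSO peak of that chromosome, from 74960562 to 74964280, with a score of 8.33. On chromosome 13 the top AKBA peak, from 100634407 to 100637582, scored 10.1, and the top DMSO peak, from 97646304 to 97646858, scored 9.27. On chromosome 4 the top scores were 8.33 in the AKBA list (75857408 to 75860441) and 6.62 in the DMSO list (6565796 to 6566055). The exception was the second DMSO peak of chromosome 4, from 174451936 to 174452853, with a score of 6.61. It had no AKBA overlap, although the nearest AKBA peak was 0.925 kb away. Of the 36 peaks chosen by width or score over both lists, 35 overlapped a peak of the other list, and some of them are partners of each other. On the other autosomes 99.4% of DMSO and 88.7% of AKBA peaks of 2 kb or more had such an overlap. At a score of at least 3.00 it was 69.5% of DMSO and 50.4% of AKBA peaks there. Median scores of the 3 chromosomes were 3.06 (chromosome 4), 3.04 (chromosome 13) and 3.05 (chromosome 18) in the DMSO list. In the AKBA list they were 3.02, 3.07 and 2.86.

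Peaks of chromosome 4 recurred in the other list more often, and those of chromosome 18 less often, than peaks of the other autosomes. Sharing required an overlap of 1 bp or more with the other list, which held for 54.5% of all DMSO and 32.2% of all AKBA peaks. On chromosome 4, 150 of 215 DMSO peaks were shared (69.8%, exact 95% binomial interval 63.2 to 75.8%) and 122 of 270 AKBA peaks (45.2%, 39.1 to 51.3%). Both shares were the highest of the 22 autosomes, and both intervals lay above the highest value of the other 19, which was 60.0% and 37.2% on chromosome 17. On chromosome 13, 152 of 273 DMSO peaks (55.7%, 49.6 to 61.7%) and 131 of 385 AKBA peaks (34.0%, 29.3 to 39.0%) were shared, and both intervals held the value of all chromosomes. On chromosome 18, 113 of 228 DMSO peaks (49.6%, 42.9 to 56.2%) and 88 of 368 AKBA peaks (23.9%, 19.6 to 28.6%) were shared. The AKBA share was the lowest of the 22 autosomes, with an interval below the pooled 31.8% of the other autosomes, while the DMSO interval held their 53.9%. Peaks are not replicates of a condition, and the order of chromosomes was not tested.

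**Figure D4:**
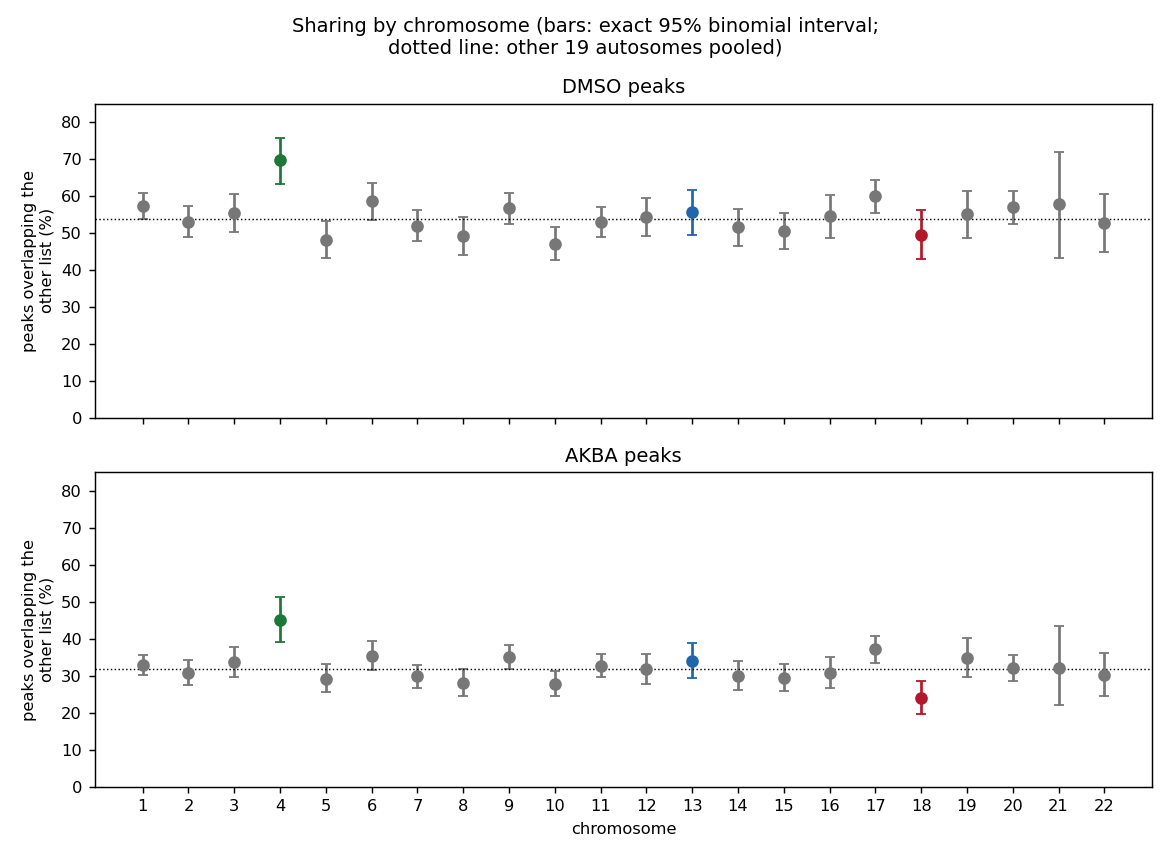
Share of peaks with an overlap of 1 bp or more in the other list (vertical axis, %), by autosome, for DMSO peaks (upper) and AKBA peaks (lower), with exact 95% binomial intervals. Chromosome 4 is highest in both panels (69.8% and 45.2%), and chromosome 18 is lowest in the lower panel (23.9%).

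Sharing rose with peak width, and the chromosomes differed in width. At the shares that the other autosomes had in 5 classes of width, the AKBA peaks of chromosome 4 would have been shared in 39.0% of cases and those of chromosome 18 in 27.8%. The observed 45.2% and 23.9% differ from these by 6.15 and -3.90 percentage points. For the DMSO peaks of chromosome 4 the width classes gave 54.2%, 15.6 points below the observed value, the greatest such difference of the 22 autosomes. Chromosome 13 differed by 1.02 (DMSO) and 1.35 (AKBA) points.

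In the DMSO list the excess on chromosome 4 was greatest at intermediate widths and at low scores. Of its DMSO peaks of 300 to under 600 bp, 35 of 51 were shared (68.6%, interval 54.1 to 80.9%), beside 41.2% on the other autosomes, and of those of 600 to under 1000 bp, 37 of 46 (80.4%, 66.1 to 90.6%), beside 55.9%. Under 300 bp the shares were 39.3% and 28.7%. From 1000 to under 2000 bp they were 93.0% and 89.4%, and at 2 kb or more 100% (14 of 14) and 99.4%, where little room is left for a difference. Of the chromosome 4 DMSO peaks with a score under 3.00, 62 of 93 were shared (66.7%, 56.1 to 76.1%), beside 38.1% on the other autosomes. With a score of at least 3.00 it was 88 of 122 (72.1%, 63.3 to 79.9%) beside 69.5%. When the minimum of 3.00 was set in both lists, 59.8% of the DMSO peaks of chromosome 4 were shared and 60.7% of those of the other autosomes, which ends the excess in that list. The AKBA peaks of chromosome 4 then had 45.3% beside 37.1%. With no minimum set in the DMSO list, they had 66.9% (58.4 to 74.6%) beside 50.4% at a score of at least 3.00, and 22.1% beside 13.5% below it. By width, AKBA peaks of chromosome 4 had 34.2% beside 20.5% from 600 to under 1000 bp and 60.7% beside 48.4% from 1000 to under 2000 bp, while none of the 25 narrowest, under 300 bp, was shared, beside 7.70%.

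**Figure D5:**
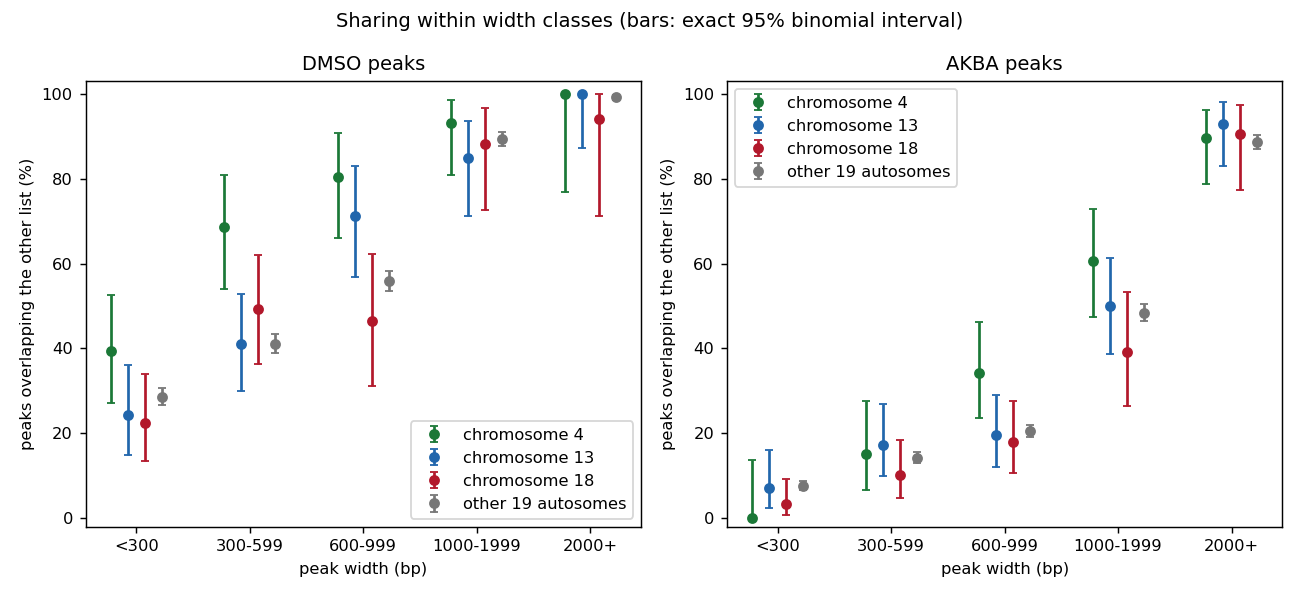
Share of peaks that overlap the other list (vertical axis, %) in 5 classes of peak width (horizontal axis, bp), for chromosomes 4, 13 and 18 and the other 19 autosomes, DMSO peaks (left) and AKBA peaks (right), with exact 95% binomial intervals. In the DMSO classes between 300 and 1000 bp chromosome 4 stands at 68.6% and 80.4%, above 41.2% and 55.9% on the other autosomes.

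The dense start of chromosome 4 did not carry its sharing. Without the first 10 Mb, 104 of the remaining 144 DMSO peaks (72.2%) and 88 of the remaining 168 AKBA peaks (52.4%) were shared, and within it 64.8% and 33.3%. The fullest windows of chromosomes 4 and 18 had lower shares than the remainder. From 8 to 9 Mb on chromosome 4 it was 56.0% of DMSO and 32.0% of AKBA peaks, beside 71.6% and 46.5% elsewhere. On chromosome 18 the window from 73 to 74 Mb had 40.0% of its DMSO and 22.2% of its AKBA peaks shared, beside 51.0% and 24.1% elsewhere on the chromosome. A stricter rule, reciprocal overlap over at least 50% of both peaks, narrowed the distance between chromosome 4 and the others to 22.3% against 20.7% of DMSO peaks and 17.8% against 13.9% of AKBA peaks. Chromosome 18 stayed below the others by that rule, with 15.8% and 9.78%.

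DMSO peaks without a counterpart were often close to an AKBA peak. Of the 301 unshared DMSO peaks of the 3 chromosomes, 165 (54.8%) lay within 10 kb of an AKBA peak, and the median distance was 7.78 kb, beside 55.6% and 7.54 kb on the other autosomes. On chromosome 4 the median was 3.77 kb over 65 peaks, on chromosome 18 4.93 kb over 115 and on chromosome 13 11.0 kb over 121. The 682 unshared AKBA peaks lay farther from DMSO peaks, at a median of 26.7 kb, beside 19.8 kb on the other autosomes. Of these AKBA peaks 33.6% lay within 10 kb of a DMSO peak, beside 38.1% on the other autosomes. More than 1 Mb away were 20 of the 682, beside 116 of 8163 on the other autosomes. The 20 comprised 9 on chromosome 18, 6 on chromosome 4 and 5 on chromosome 13. The most remote, on chromosome 4, was 3.46 Mb from the nearest DMSO peak.

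More peaks and more bases were called with AKBA on each of the 3 chromosomes. Chromosome 4 had 1.26 AKBA peaks per DMSO peak (95% interval 1.05 to 1.51), the lowest ratio of the 22 autosomes, yet 2.11 times the DMSO bases, the second highest. Chromosome 18 had a peak ratio of 1.61 (1.36 to 1.91) and a base ratio of 2.06, the third highest of both. Chromosome 13 had 1.41 (1.20 to 1.65) and 1.91. The covered length was 169 kb (DMSO) and 357 kb (AKBA) on chromosome 4, 238 and 454 kb on chromosome 13, and 176 and 362 kb on chromosome 18. Pooled, the peak ratio was 1.43 (1.30 to 1.57) beside 1.49 (1.45 to 1.53) on the other autosomes, and the base ratio 2.01 beside 1.93. The interval of each of the 3 peak ratios held the 1.49 of the other autosomes. A single AKBA peak overlapped several DMSO peaks in 24 cases on chromosome 4, 21 on chromosome 13 and 22 on chromosome 18, and the reverse occurred 1, 4 and 0 times. In all that is 67 of 1023 AKBA peaks and 5 of 716 DMSO peaks, beside 501 of 11974 and 79 of 8052 on the other autosomes. The longer joining distance of the AKBA list moves with that count, and its part in it was not tested.

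By windows, more bases were covered with AKBA than with DMSO in 176 of 203 windows of the 3 chromosomes that had any peak (86.7%, exact 95% interval 81.2 to 91.0%), beside 86.1% over all chromosomes. The share was 82.8% on chromosome 4, 87.5% on chromosome 13 and 92.3% on chromosome 18, with intervals that each held 86.1%. Peaks of both lists were present in 162 windows, AKBA peaks alone in 31 and DMSO peaks alone in 10, of which 7 lay on chromosome 4. On the other autosomes these counts were 1548, 221 and 80 of 1849 windows. The windows with the greatest excess of DMSO bases were small in comparison. On chromosome 4 from 82 to 83 Mb the covered length was 2.04 kb (DMSO) and 1.09 kb (AKBA), and on chromosome 13 from 31 to 32 Mb 3.06 and 2.33 kb. On chromosome 18 from 18 to 19 Mb the 2 DMSO peaks covered 2.63 kb with no AKBA peak. They lie between 18517067 and 18520420, at the border of a stretch of 3.32 Mb without a peak of either list.

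Joining peaks of both lists within 5 kb gave 924 domains on the 3 chromosomes, of which 337 held peaks of both lists (36.5%, exact 95% interval 33.4 to 39.7%), beside 35.7% over all chromosomes. The share was 46.3% on chromosome 4 (39.6 to 53.0%), 36.0% on chromosome 13 (31.1 to 41.2%) and 30.4% on chromosome 18 (25.5 to 35.6%), the same order as for single peaks. AKBA peaks alone formed 436 of the 924 domains and DMSO peaks alone 151, beside 5079 and 1950 of 10884 on the other autosomes. Both lists were present in all 30 domains of 10 kb or more, and AKBA covered more bases in 29 of them. On the other autosomes both lists were present in 406 of 423 such domains, and AKBA covered more bases in 396.

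The widest common domain of chromosome 13 ran from 112706073 to 112730348, 24276 bp, with 7 DMSO peaks over 10.2 kb and 4 AKBA peaks over 16.8 kb. On chromosome 4 it ran from 8856865 to 8880714, 23850 bp, with 11 DMSO peaks over 7.64 kb and 6 AKBA peaks over 13.1 kb. On chromosome 18 it ran from 56931959 to 56954822, 22864 bp, with 4 DMSO peaks over 7.63 kb and 3 AKBA peaks over 14.1 kb. In each of these domains AKBA had fewer peaks and more covered bases than DMSO. Domains of 1 list were far smaller. With AKBA alone the widest measured 7788 bp on chromosome 4 (1490046 to 1497833), 7361 bp on chromosome 13 (112908442 to 112915802) and 7119 bp on chromosome 18 (77350070 to 77357188). With DMSO alone they measured 1044 bp (8271439 to 8272482), 6263 bp (100531236 to 100537498) and 3354 bp (18517067 to 18520420).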

How the data were processed

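H3K27me3 chromatin immunoprecipitation was sequenced for 1 library per condition, and the authors deposited 1 peak list for each library. Per the submitters' processing notes the build was hg19 and the tools were BWA, STAR and MACS2, without versions. For the peak threshold, the use of input DNA and duplicates, settings are not given in sources at hand. Each deposited line holds a chromosome, start, end, name and score. The scores that the authors deposited run from 2.00 to 18.7 (DMSO) and from 2.03 to 14.3 (AKBA) on a scale not given. Starts and ends were read as BED positions and are printed 1-based. The narrowest peak was 160 bp (DMSO) and 214 bp (AKBA), and the smallest gap 641 and 857 bp, so numbers, widths and joins of peaks can differ through the calling alone. Depth is unknown.

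Tables were computed with scipy 1.17.1, pandas 2.3.3 and numpy 2.4.6 under Python 3.11.15, tested on simulated data, and overlaps were checked against bedtools 2.31.1. Chromosome X, with 280 peaks, is not among the autosomes. Regions named are, per chromosome and list, the 3 widest and 3 highest-scoring peaks, and per chromosome the 3 fullest windows, the windows with the greatest difference of bases in each direction, the longest peak-free stretches and the widest domain of each kind. The second longest DMSO stretch of chromosome 13 and the most remote AKBA peak were added after their values were seen. The chromosomes, gene lists and rules were chosen with earlier results of these data known. The gene table is of another build, so its genes were only counted by chromosome (153 coding rows on extra scaffolds left out), and peaks at genes were not analysed here. Alternatives changed the score or width minimum, number, merging, window, span and overlap. Leaving out the first 10 Mb of chromosome 4 or the fullest windows, and the classes of score, were chosen after seeing the data.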

Additional observations from a re-analysis of the deposited data

How the results depend on the processing

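Of 178 recomputed values, 156 moved by less than their margin and 22 by more. The margins were wide, and a change of side within them counts among the 156. With widths of at least 1 kb the DMSO ratio of median gaps went from 0.933 to 1.37 within its margin. The AKBA difference in pooled sharing went from 1.51 to -0.775 points in that setting, also within its margin. The 156 are therefore no count of values that kept their direction. The 3 chromosomes had a lower density, a larger share of empty windows and a larger share of peaks in the fullest windows. These differences kept their direction under every alternative run that could move them, but rested in size on chromosome 4. Cutting both lists to equal size left the DMSO list whole, as it is the shorter at 8890 peaks. Its density, gaps, window shares and median width could not move there, and these values are counted among the 156. Without chromosome 4 the density ratio of the AKBA list was 0.885. The difference in empty windows was then 12.6 percentage points (DMSO) and 7.34 (AKBA), against 19.9 and 19.6, and that in the fullest 10% of windows 5.27 and 1.87, against 12.1 and 11.2. With widths of at least 1 kb the DMSO difference in empty windows was 12.5.

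The pooled sharing of the 3 chromosomes, 4.05 (DMSO) and 1.51 (AKBA) points above the other autosomes, changed side. Without chromosome 4 it was -1.02 and -2.74, and without chromosome 18 7.97 and 6.80. For DMSO it was -2.91 with a score of at least 3.00 in both lists, -1.66 with widths of at least 1 kb and -0.337 by reciprocal overlap of 50%. The difference of chromosome 4, 15.9 (DMSO) and 13.4 (AKBA), was -0.849 for DMSO at the score minimum. It was 4.85 and 1.14 at the width minimum, 1.60 and 3.84 by reciprocal overlap, and for AKBA 20.6 without the first 10 Mb. Chromosome 18 stayed below the other autosomes in every alternative run, at -13.6 for DMSO at the score minimum. The cause of these shifts was not tested. The ratio of median gaps changed side in 4 of 16 alternatives, all of them in the DMSO list. The 16 include the DMSO value at equal list size, which could not move. In the AKBA list the ratio of median gaps kept its side in every alternative run, from 1.01 without chromosome 4 to 1.51 at the score minimum. The ratio of median widths changed side in 5 of 16, and its DMSO value at equal list size could not move either. Neither the DMSO gap ratio nor the width ratio has a settled direction.

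With the same number of peaks taken from each list, the ratio of AKBA to DMSO peaks on the 3 chromosomes was 0.951, since that setting equalises the totals of peaks. It does not equalise bases. The ratio of bases was then 1.58, against 2.01 with all peaks, and the share of windows with more AKBA bases 74.9%, against 86.7%. Alternatives for peaks at listed genes were not run without an annotation of the build. No paired analysis was possible because each condition has 1 library and the values come from no test. Depth is unknown, so peaks missing from a list may have been missed by the calling.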
